A study of Mus musculus with 12 samples.

Results

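The 9 genes described here carry out or control lipolysis, the release of stored fat from adipocytes: the lipases Pnpla2, Lipe and Mgll, the lipase cofactors Abhd5 and G0s2, the hormone-signalling genes Adrb3, Prkar2b and Pde3b, and the glycerol channel Aqp7. Each was taken as the row of the deposited table whose gene column holds that symbol, and as the row of highest mean where a symbol has several. This choice of row uses no difference between groups, but the members themselves were chosen with earlier results of these data known. They are 9 of 39248 rows in the table and 9 of the 14706 rows whose mean reached 1 FPKM (fragments per kilobase of transcript, a level scaled to transcript length and library size). All 9 passed that filter.

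The libraries came from 3T3-L1 cells, a mouse line of preadipocytes that is turned into adipocytes in culture, and there were 12 of them. In 6, differentiated cells had received a control siRNA, and in the other 6 an siRNA against Zfp407, a zinc finger protein, with 3 electroporations of each of 2 siRNA sequences. All cells got 0.75 nmol of siRNA by electroporation 2 days after differentiation. The series' title places the work in the control of insulin-stimulated glucose uptake and of Glut4 mRNA, and lipolysis is read here as a second property of the same adipocytes. The table numbers the knockdown columns 1 to 6 without saying which siRNA each received, so the numbers serve below only as names. Because all libraries come from 1 cell line, the p-values measure the spread between electroporations, which in the knockdown group includes any difference between the siRNAs. The tests took the 6 knockdown libraries as independent, although each siRNA sequence was used in 3 of them. If libraries of the same siRNA resemble each other, the p-values can be too small. With 2 sequences, they do not measure how far results vary from siRNA to siRNA.

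Lipolysis proceeds in steps. Pnpla2 (adipose triglyceride lipase) takes the first fatty acid from triacylglycerol, Lipe (hormone-sensitive lipase) takes the next from diacylglycerol, and Mgll (monoacylglycerol lipase) frees the last one together with glycerol, which leaves the cell through Aqp7. Catecholamines start the process through the beta-3 adrenergic receptor Adrb3 and cyclic AMP, which releases the catalytic subunits of protein kinase A (PKA) from regulatory subunits such as Prkar2b, and insulin opposes it through Pde3b, a phosphodiesterase that breaks down cyclic AMP.

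In the authors' coordinates, which match GRCm38, the rows lie on 7 chromosomes: Pnpla2 (XLOC_030836) at chr7:141454482-141460834, Lipe (XLOC_031283) at chr7:25378741-25398710, Pde3b (XLOC_030618) at chr7:114415201-114539251, Mgll (XLOC_028033) at chr6:88716428-88828360, Abhd5 (XLOC_035180) at chr9:122351608-122398801, G0s2 (XLOC_001853) at chr1:193269485-193273188, Adrb3 (XLOC_033664) at chr8:27225625-27230967, Prkar2b (XLOC_007292) at chr12:31958225-32061296 and Aqp7 (XLOC_024067) at chr4:41032926-41048139. All 9 overlap the protein-coding gene of that name in GENCODE. The rows of Lipe and Abhd5 share their positions with rows of the transcripts 4732471J01Rik and A730085K08Rik, and a second Mgll row covers the same span as the one used. Reads of such overlapping rows may not be separable. The same holds for other genes named below, such as Abhd12, whose row shares its position with Pygb, and Plin4, with Hdgfrp2.

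The DNA just upstream of 4 of these genes is shown because their transcripts gave the widest contrast among the members, a choice made after their values were seen: Pnpla2, Mgll and Aqp7 had the largest decreases and Abhd5 the smallest difference. Each sequence is the 250 bases before the RefSeq transcript start in GRCm38.p6, written 5′ to 3′ on the gene's strand, and capitals mark a match to a searched motif. RefSeq promoter entries were found for 7 of the 9 members, not for Adrb3 or Pde3b, and 11 entries in all since some genes have several starts.
Pnpla2, chr7:141454938-141455187, plus strand: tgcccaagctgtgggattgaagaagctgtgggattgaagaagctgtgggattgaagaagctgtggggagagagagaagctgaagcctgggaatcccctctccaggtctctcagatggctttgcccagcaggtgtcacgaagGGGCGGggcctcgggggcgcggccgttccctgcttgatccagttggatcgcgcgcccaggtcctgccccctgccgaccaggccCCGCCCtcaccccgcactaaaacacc
Mgll, chr6:88724162-88724411, plus strand: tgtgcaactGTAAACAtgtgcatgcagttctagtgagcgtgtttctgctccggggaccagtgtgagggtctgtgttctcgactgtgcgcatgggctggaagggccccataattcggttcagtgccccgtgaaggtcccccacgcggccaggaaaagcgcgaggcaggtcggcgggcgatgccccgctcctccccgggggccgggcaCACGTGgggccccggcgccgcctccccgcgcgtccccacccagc
Aqp7, chr4:41048137-41048386, minus strand: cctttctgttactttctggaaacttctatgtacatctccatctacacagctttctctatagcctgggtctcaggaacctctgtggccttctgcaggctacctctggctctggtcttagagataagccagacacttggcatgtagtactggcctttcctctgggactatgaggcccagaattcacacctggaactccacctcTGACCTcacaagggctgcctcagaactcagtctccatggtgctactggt
Abhd5, chr9:122351366-122351615, plus strand: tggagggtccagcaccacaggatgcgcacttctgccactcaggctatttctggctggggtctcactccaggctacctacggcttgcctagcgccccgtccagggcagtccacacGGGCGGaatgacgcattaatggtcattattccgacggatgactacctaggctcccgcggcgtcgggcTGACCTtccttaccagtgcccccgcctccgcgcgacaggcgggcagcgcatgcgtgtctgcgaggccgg

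Motifs were searched on both strands: the nuclear receptor core AGGTCA, the GC box GGGCGG, the CCAAT box CCAAT, the E-box CACGTG, the cyclic AMP response element TGACGTCA, the FOXO site GTAAACA and the TATA box TATAAA. The Mgll window overlaps an exon of the long noncoding RNA Gm26588 in GENCODE. The Pnpla2 window holds 2 GC boxes that begin 109 and 26 bases before the start. In the Mgll window, a FOXO site begins 241 and an E-box 44 bases before the start. The Aqp7 window has 1 receptor core, at 49 bases, and that of Abhd5 has 1 receptor core at 69 bases and 1 GC box at 136 bases. A receptor core stands upstream of both Aqp7, which was called lower, and Abhd5, which was not called. Whether any motif bears on the calls was not tested. Over all 32851 RefSeq windows of this length, 14% hold the receptor core, 32.7% the GC box, 6.02% the E-box and 3.17% the FOXO site. Among the 7 members with an entry, 6 had a GC box in at least 1 window, 3 an E-box, 2 a receptor core and 2 a FOXO site, and no window held a CCAAT box, a cyclic AMP response element or a TATA box, which stand in 33.8%, 1.55% and 12.4% of all windows. The member counts are per gene, over all windows of that gene, while the shares are per window, so they are not on the same footing. GC content of the member windows ran from 50.8% (Aqp7) to 75.6% (Prkar2b), beside a median of 52.4% over all windows. These are matches of letters and do not show binding.

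Summed FPKM ranged from 2772930 to 3748490 per library, and mitochondrial rows took 19.4% to 32.8% of it, with the highest share in knockdown library 6. The table gives no read totals, but the steps between low values gave depths of 0.88 to 1.15 relative to control library 1. Zfp407 itself was at 2.83 ± 0.178 FPKM in the control and 1.79 ± 0.208 FPKM in the knockdown libraries (SD, n = 6 each) and lay below every control library in all 6, so transcript remained. All 10 adipocyte markers passed the filter, 4 called lower and 1 higher, beside 24.8% and 11.6% of all rows tested. Adipoq, Cd36, Cfd and Slc2a4 were the lower ones and Cebpa the higher one. Summed levels were 18623.9 to 22910.9 FPKM in the control and 17111.3 to 21906.2 FPKM in the knockdown libraries. The largest part of that sum was Fabp4, which was not called (means of 9588 and 9413 FPKM). Preadipocyte markers summed to 2578.46 to 2905.21 and 2043.66 to 2711.36 FPKM, with 9 of 10 tested and 3 of these lower, beside the same 24.8% of all rows. Of 6 brown adipocyte markers only Cox7a1 reached a mean of 1 FPKM, so the sum of the list was in effect that of Cox7a1. It was 124 to 139 FPKM in the control and 71.7 to 95.1 FPKM in the knockdown libraries, without overlap (exact permutation p = 0.00216, adjusted 0.0108). Cidea of this list went the other way, with means of 0.604 and 1.18 FPKM, and Ucp1 was near 0. Macrophage markers summed to 3.13 to 3.89 and 2.75 to 3.89 FPKM, with Adgre1 at 0 in every library, and endothelial markers to 1.57 to 2.003 and 1.80 to 2.32 FPKM. The adipocyte, preadipocyte and macrophage sums did not pass the exact permutation test (adjusted p = 0.235, 0.0938 and 0.437). The endothelial sum was higher in the knockdown group (exact permutation p = 0.00649, adjusted 0.0162 over 5 marker lists). Its 1 tested gene, Vwf, was called higher at 1.37 and 1.77 FPKM (limma adjusted p = 0.0313). That call was lost without control library 1, 3, 5 or 6 or knockdown library 1, 2, 3 or 6. Whether any of these differences bears on the lipolysis genes was not tested, and fewer adipocytes and less RNA per adipocyte cannot be told apart in such samples.

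In control cells the lipolysis genes spanned a 73.9-fold range of level per transcript length. G0s2 (669 ± 34.3 FPKM, SD, n = 6) and Pnpla2 (597 ± 18.9 FPKM) were highest, and their libraries overlapped. Then came Lipe (432 FPKM), Abhd5 (125 FPKM), Prkar2b (109 FPKM) and Adrb3 (64.8 FPKM), each below every library of the gene before it. Aqp7 (29.9 FPKM) and Pde3b (27.1 FPKM) followed with overlapping ranges, and Mgll (9.06 FPKM) was lowest. In the knockdown libraries G0s2, Lipe and Pnpla2 stood at the top in that order of means, with neighbours overlapping, and Pde3b came before Aqp7. The range between G0s2 and Mgll was 103-fold there.

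Between the groups, 7 of the 9 genes were lower in the knockdown libraries by limma (adjusted p under 0.05 over all 14706 rows): Pnpla2, Mgll, G0s2, Adrb3, Prkar2b, Pde3b and Aqp7. None was called higher, 1 (Lipe) was higher at an unadjusted p under 0.05, and Lipe and Abhd5 were not called. For comparison, which is descriptive because the members were chosen with earlier results known, 24.8% of all rows tested were called lower and 11.6% higher. That balance moved with scaling: lower rows made up 68.1% of all called rows as deposited, 57.7% with each library centred at its median, and 50.4% with each library scaled to the sum over its protein-coding rows, and under either scaling 5 of the 9 genes were called lower, without G0s2 and Adrb3. The median log2 fold change of the 9 genes was -0.28, beside -0.05 over all rows tested and -0.07 over the protein-coding ones. Against a minimum fold of 1.2, Pnpla2 and Aqp7 were called lower, as were 3.69% of all rows, and no member was called higher, as were 2.13% of all rows. In 4 genes (Pnpla2, Mgll, Pde3b and Aqp7) every knockdown library lay below every control library, which held for 13.9% of rows tested, and in none did every knockdown library lie above, which held for 5.51%. An exact permutation test over the samples, adjusted over all rows, called 6 of the 9 lower and none higher, with G0s2 the gene it did not call. In low-abundance rows the FPKM worth of 1 read differed between the 2 groups by over 0.01 on the log2 scale in 32.6% of 985 rows (by 0.161 at the median of those), against 1.81% and 1.85% of rows within the groups. These figures leave out the rows where the groups differed most, so they do not give the full size of this difference. Its part in the changes below was not tested. That holds for the smaller ones, those of Adrb3, Prkar2b, G0s2, Lipe and Abhd5, and also for the larger ones, such as that of Pde3b. Nor was its part tested in the list genes.

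**Figure D1:**
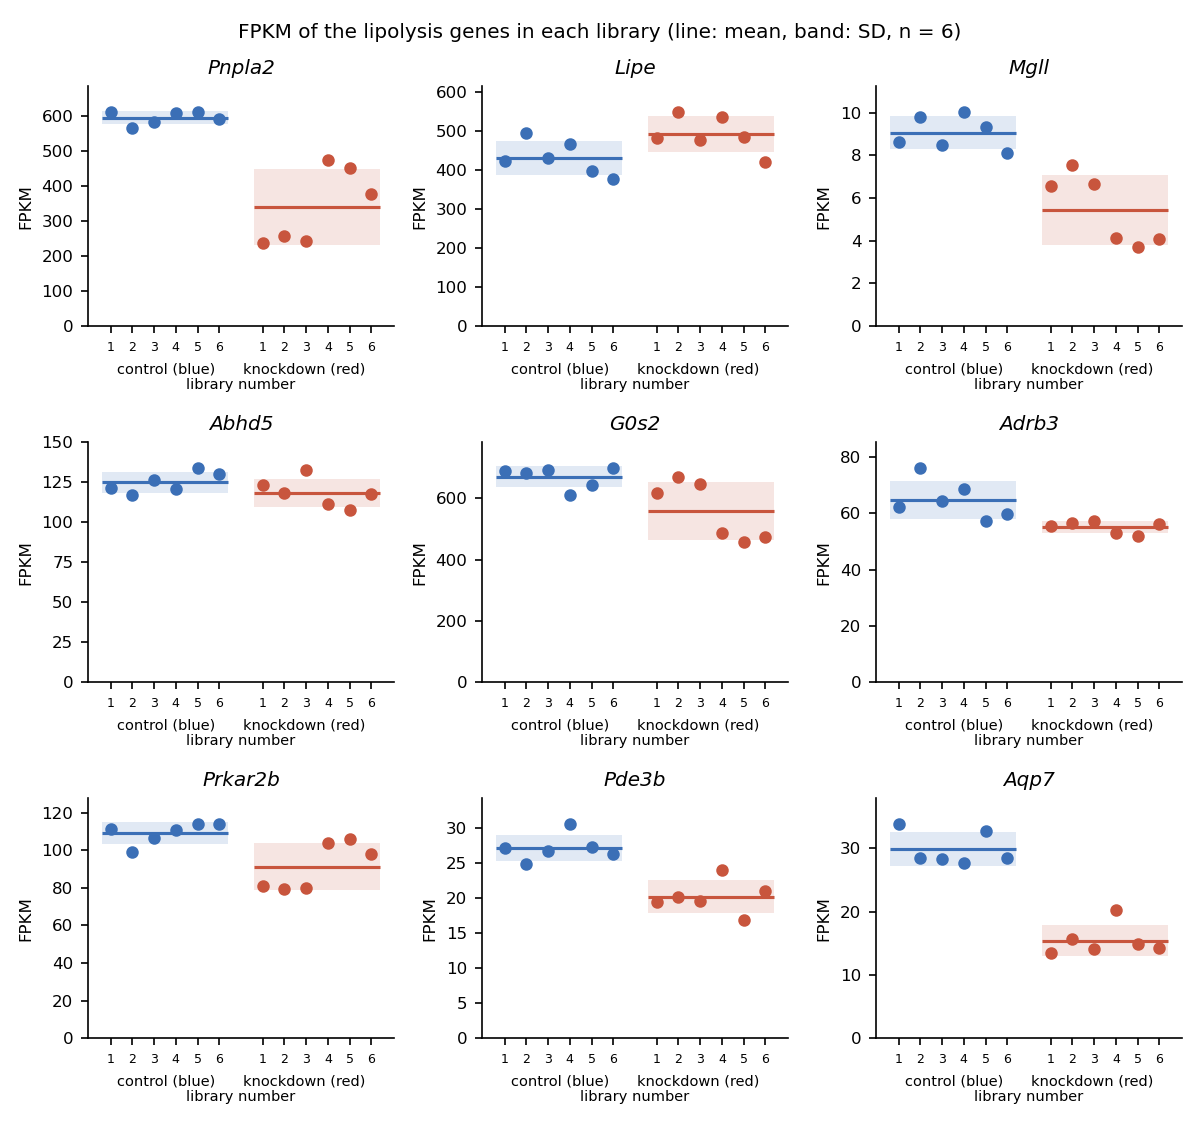
FPKM (vertical axis, from 0) of each lipolysis gene in control libraries 1 to 6 (blue) and knockdown libraries 1 to 6 (red), with the mean as a line and the SD as a band (n = 6 each). The red points lie below all blue points for Pnpla2, Mgll, Pde3b and Aqp7 and overlap them for the other 5 genes.

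Pnpla2, the lipase of the first step, fell the most among the lipases. The control libraries lay between 567 and 613 FPKM, with a median of 602 FPKM. Knockdown libraries 1 to 6 held 238, 258, 243, 476, 452 and 379 FPKM. All 6 were below the lowest control library, and libraries 1, 2 and 3 were far below 4, 5 and 6. The mean went from 597 ± 18.9 to 341 ± 109 FPKM (SD, n = 6), which is 42.8% lower, with a limma log2 fold change of -0.87 on the log2(FPKM + 1) scale used throughout (SE 0.17, adjusted p = 0.00216). The spread widened along with the decrease, from a coefficient of variation of 3.16% in the control to 31.9% in the knockdown libraries. As a share of the control mean, the 6 knockdown libraries stood at 39.9%, 43.2%, 40.7%, 79.8%, 75.8% and 63.5%, so the size of the decrease differed among libraries of the same group.

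Mgll, the lipase of the last step, also lay below the control range in every knockdown library, but with the other libraries lowest. Control libraries were between 8.09 and 10.04 FPKM, with a median of 8.97 FPKM, and knockdown libraries 1 to 6 at 6.54, 7.53, 6.65, 4.13, 3.69 and 4.08 FPKM. Libraries 4, 5 and 6 were the low ones here. Mean Mgll was 9.06 ± 0.778 FPKM in the control and 5.44 ± 1.65 FPKM in the knockdown group (SD, n = 6), 40.0% lower (limma log2 fold change -0.68, SE 0.15, adjusted p = 0.00337). The second Mgll row at the same position, at 1.53 ± 0.185 FPKM in the control and 0.943 ± 0.231 FPKM in the knockdown libraries, was lower too (limma log2 fold change -0.39, adjusted p = 0.00447), again with no overlap.

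Lipe, the lipase between these steps, was the member with a higher mean in the knockdown libraries, a difference that did not pass the test. Its control libraries ran from 376 to 496 FPKM around a median of 427 FPKM, and knockdown libraries 1 to 6 held 482, 549.9, 477, 537, 484 and 422 FPKM. The groups overlapped: 5 knockdown libraries were above the control mean and 2 above the highest control library. Mean Lipe was 432 ± 43.9 FPKM in the control and 492 ± 46.3 FPKM in the knockdown group (limma log2 fold change 0.19, SE 0.079, adjusted p = 0.0829). Without control library 2 or knockdown library 6 it was called higher, at limma adjusted p = 0.0366 and 0.0329.

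**Figure D2:**
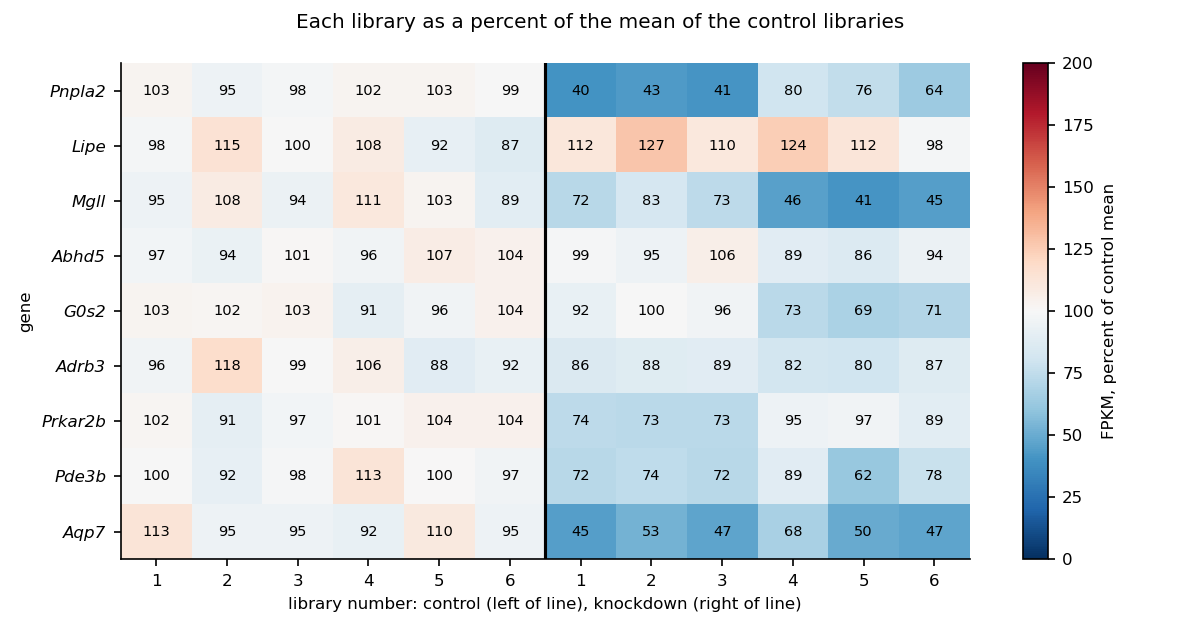
FPKM of each lipolysis gene (rows) in each library (columns, control left and knockdown right of the line) as a percent of that gene's control mean, in colour and digits. Pnpla2 and Prkar2b are lowest in knockdown libraries 1 to 3, Mgll and G0s2 in knockdown libraries 4 to 6, and Aqp7 is low in all 6.

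Of the cofactors of Pnpla2, the coactivator was not called and the inhibitor was lower by a narrow margin. Abhd5, its coactivator, was at 125 ± 6.47 FPKM in the control (range 117 to 134) and 119 ± 8.81 FPKM in the knockdown libraries (range 108 to 133), with a limma log2 fold change of -0.08 (SE 0.053, adjusted p = 0.281). The ranges of Abhd5 overlapped broadly, and the difference did not pass the test. G0s2, the inhibitor of Pnpla2, was between 612 and 699 FPKM in the control, with a median of 685 FPKM. It stood at 618, 668, 646, 487, 458 and 474 FPKM in knockdown libraries 1 to 6. Libraries 1, 2 and 3 lay inside the control range and 4, 5 and 6 below it, the reverse of the order seen for Pnpla2. The decrease of mean G0s2 from 669 ± 34.3 to 559 ± 95.5 FPKM (SD, n = 6) only just passed limma (log2 fold change -0.28, SE 0.10, adjusted p = 0.0483). That call was lost when any control library or knockdown library 4, 5 or 6 was left out (limma adjusted p up to 0.0988), and on centring each library at its median (adjusted p = 0.0907).

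Ratios within a library describe the balance between these transcripts and do not depend on library scaling. They do not remove a difference between the groups in the FPKM worth of 1 read, which can differ from row to row. The Lipe to Pnpla2 ratio of FPKM was 0.635 to 0.873 in the control libraries and 2.02, 2.13, 1.96, 1.13, 1.07 and 1.11 in knockdown libraries 1 to 6. So Pnpla2 exceeded Lipe in every control library and Lipe exceeded Pnpla2 in every knockdown library. The mean log2 ratio rose from -0.47 ± 0.17 to 0.58 ± 0.49 (SD, n = 6), a difference of 1.06 with an exact two-sided permutation p of 0.00216, the smallest that 924 divisions of the samples can give, and 0.00289 after Benjamini-Hochberg adjustment over the 4 within-library measures. The Abhd5 to Pnpla2 log2 ratio rose from -2.26 ± 0.0711 to -1.47 ± 0.556, a difference of 0.79 with the same exact permutation p-values and no overlap. Pnpla2 alone already separated the groups (limma log2 fold change -0.87), and neither Lipe nor Abhd5 was called. These ratios thus largely restate the decrease of Pnpla2 and are not separate results. For G0s2 to Pnpla2 the linear ratio was 1.001 to 1.203 in the control and 2.60, 2.59, 2.66, 1.02, 1.01 and 1.25 in knockdown libraries 1 to 6. That inhibitor-to-lipase ratio thus exceeded the control range in knockdown libraries 1, 2, 3 and 6 and lay within it in 4 and 5, and its mean log2 difference of 0.59 did not pass (exact permutation p = 0.117, adjusted 0.117).

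**Figure D3:**
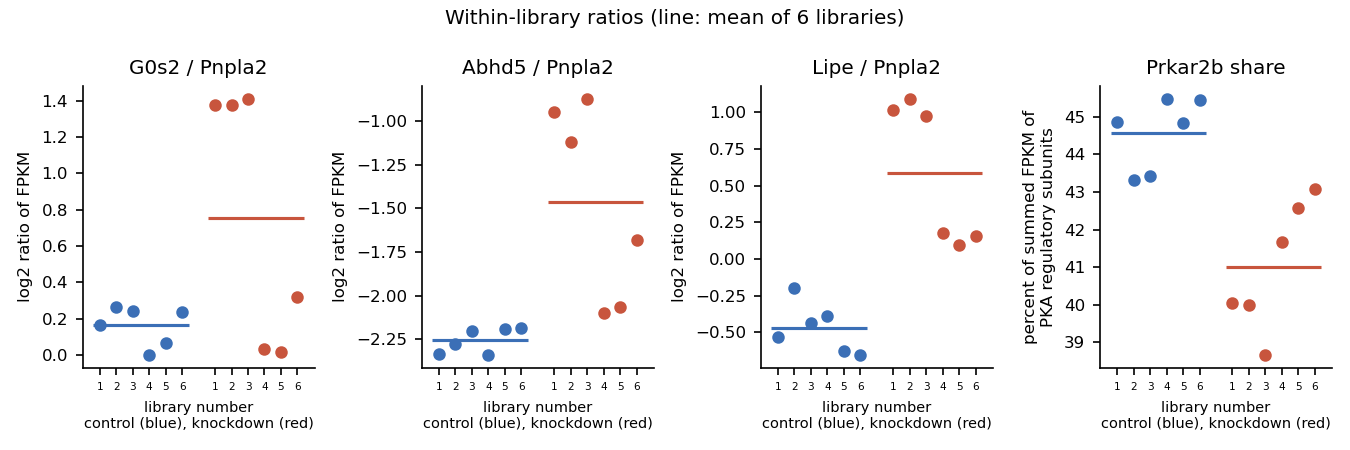
Log2 ratios of FPKM for G0s2, Abhd5 and Lipe over Pnpla2, and the share of Prkar2b in the summed FPKM of the PKA regulatory subunits in percent, for control (blue) and knockdown (red) libraries 1 to 6, with lines at the means. The Lipe over Pnpla2 ratio lies above 0 in every knockdown library and below 0 in every control library.

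The 3 genes of hormone control, Adrb3, Pde3b and Prkar2b, were each lower, with log2 fold changes from -0.41 to -0.22. Adrb3, the receptor that starts lipolysis, was between 57.3 and 76.2 FPKM in the control, with a median of 63.3 FPKM. In the knockdown group it ran from 51.9 to 57.3 FPKM, with a median of 55.9 FPKM. Of the knockdown libraries 5 were below the lowest control library, and library 3 was level with it. Mean Adrb3 was 64.8 ± 6.83 and 55.1 ± 2.18 FPKM (limma log2 fold change -0.22, SE 0.062, adjusted p = 0.0147), and the call was lost with each library centred at its median (adjusted p = 0.0526). The receptor gene Adrb1 had a control mean of 0.394 FPKM and was not tested.

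Pde3b, the insulin-controlled phosphodiesterase, was lower in all 6 knockdown libraries. Its control values ran from 24.9 to 30.6 FPKM (median 26.9), and its knockdown values were 19.5, 20.2, 19.6, 24.0, 16.9 and 21.02 FPKM. The groups did not overlap, although knockdown library 4 came close to the lowest control library. Its mean fell from 27.1 ± 1.91 to 20.2 ± 2.34 FPKM, 25.5% lower (limma log2 fold change -0.41, SE 0.072, adjusted p = 8.77e-04). The related phosphodiesterase Pde3a had a control mean of only 0.00226 FPKM, and was not tested.

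Prkar2b encodes the PKA regulatory subunit RII beta, the form typical of fat tissue. Its control libraries lay between 99.0 and 114 FPKM, with a median of 111 FPKM, and knockdown libraries 1 to 6 at 81.1, 79.6, 79.7, 104, 106 and 97.8 FPKM. Libraries 1, 2 and 3 were well below the control range, 6 was just below it, and 4 and 5 were within it, the same grouping that Pnpla2 showed. Mean Prkar2b was 16.4% lower in the knockdown group (limma log2 fold change -0.27, SE 0.082, adjusted p = 0.0232), and leaving out knockdown library 1 or 3 ended the call (adjusted p by limma 0.0522 and 0.0518). As a share of the summed FPKM of the PKA regulatory subunits, Prkar2b went from 44.6% ± 0.956 to 41.0% ± 1.71 (SD, n = 6), with ranges of 43.3% to 45.5% and 38.7% to 43.1% that did not overlap (exact permutation p = 0.00216, adjusted 0.00289). The change of the share was small, and the part in it of the FPKM worth of 1 read was not tested.

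Aqp7, the channel for glycerol, and Pnpla2 had the largest decreases of the 9 genes, and their order depended on the setting. Aqp7 was the lower in the values as deposited, and Pnpla2 with a pseudocount of 5 FPKM (-0.86 against -0.78), after quantile normalization (-0.92 against -0.88) and without knockdown library 5 or 6. Control libraries were between 27.7 and 33.9 FPKM (median 28.4), and knockdown libraries 1 to 6 at 13.5, 15.7, 14.1, 20.3, 14.8 and 14.2 FPKM. Every knockdown library was below every control library, and except for library 4 they were close together. Mean Aqp7 fell from 29.9 ± 2.69 to 15.4 ± 2.48 FPKM (SD, n = 6), 48.4% lower (limma log2 fold change -0.92, SE 0.090, adjusted p = 1.14e-05). Leaving out any single library left its log2 fold change between -0.997 and -0.884. On this scale, 1.05% of all rows tested had a log2 fold change as low as that of Aqp7, and 1.28% one as low as that of Pnpla2. The scale understates the changes of low genes, so these shares can make the members look more extreme.

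**Figure D4:**
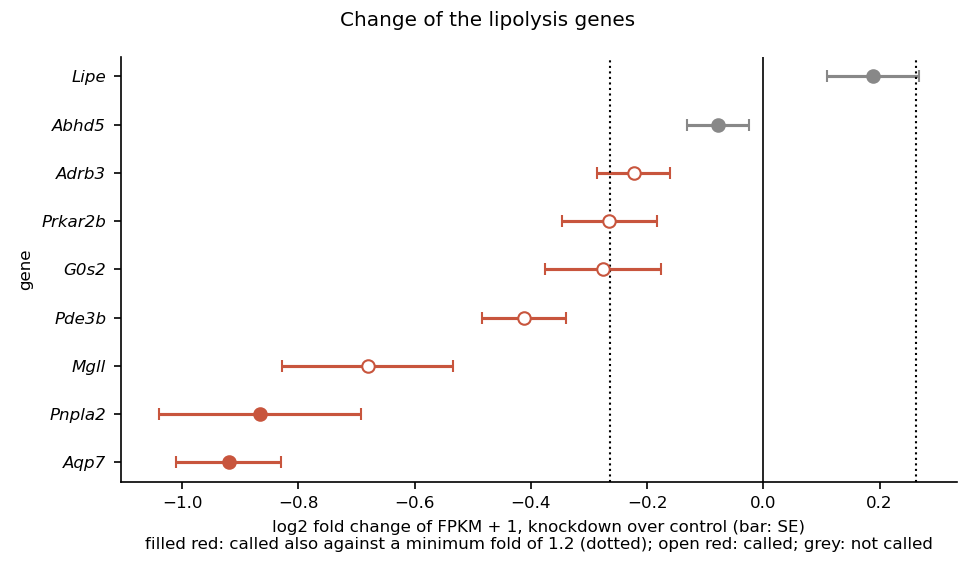
Log2 fold change of FPKM + 1, knockdown over control, for each lipolysis gene, with the SE from limma as a bar (n = 6 per group). Aqp7 (-0.92) and Pnpla2 (-0.87) lie farthest below 0, and Lipe (0.19) is the member above 0.

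The authors' deposited table marked 2 of the 9 genes as significant. The share of all rows so marked is not given here, so this count has no background beside it. In the authors' deposited table Pnpla2 had a log2 fold change of -0.81 and a q-value of 0.00716, and Mgll one of -0.76 and 0.0359. For Aqp7 the authors' deposited table gave -0.95 with a q-value of 0.126, and for Lipe 0.18 with a q-value of 1.00. All 9 signs there were those found with limma, and Aqp7, Pde3b, Adrb3, Prkar2b and G0s2, called lower with limma, were not significant there. Zfp407 itself was not significant there either, with a log2 fold change of -0.77 and a q-value of 0.0734.

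The profiles nearest to those of the members called against the minimum fold were found over the 12 libraries, by the root mean square difference of log2 values centred on each gene's control mean, among 9557 rows. Nearest to Pnpla2 were Sncg (0.131), at 158 ± 10.003 FPKM in the control and 98.1 ± 27.6 FPKM in the knockdown libraries, and Thrsp (0.16), at 121 ± 12.2 and 63.6 ± 13.7 FPKM. Nearest to Aqp7 were Cyb5b (0.118), at 96.1 ± 3.84 and 51.6 ± 3.30 FPKM, and the acetyl-CoA synthetase gene Acss2 (0.12), at 27.4 ± 0.971 and 15.004 ± 1.33 FPKM. They were chosen for this likeness, so it is a description and no finding.

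The wider pathway was read from 8 lists of 103 genes, of which 70 were tested. Among lipases and cofactors beyond the members, 7 of 9 tested genes were lower and none higher, beside 24.8% and 11.6% of all rows tested, with a median log2 fold change of -0.31. Abhd6, a monoacylglycerol hydrolase named here after its values were seen, went the other way, from 8.54 ± 0.657 to 10.5 ± 1.86 FPKM. It was not called (limma adjusted p = 0.0541) but was called higher with each library centred at its median (0.027) and without knockdown library 1 or 2. Pnpla3, a relative of Pnpla2, fell from 13.2 ± 0.605 to 9.02 ± 1.01 FPKM (limma adjusted p = 9.56e-05), and the carboxylesterase Ces1f from 59.8 ± 2.25 to 42.3 ± 3.19 FPKM (adjusted p = 1.38e-05). The carboxylesterase Ces1d (41.5 and 32.1 FPKM) barely passed limma (adjusted p = 0.0497), and its call was lost without control library 1, 3, 4, 5 or 6 or knockdown library 1, 2, 3 or 4. Abhd12, a lipase of lysolipids, had a limma log2 fold change of -0.31 (adjusted p = 0.0130), and the lysosomal lipase Lipa of -0.24 (adjusted p = 4.53e-04). Decreases in the lipase list were thus not limited to the members.

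Genes of the droplet coat, the proteins that guard the stored fat from lipases, went both ways: 3 of 7 were lower, 2 higher and 2 not called, beside 24.8% and 11.6% of all rows tested called lower and higher, with a median log2 fold change of -0.13. Plin4 fell from 218 ± 17.1 to 113 ± 8.40 FPKM (limma adjusted p = 3.94e-07). Plin2 rose from 135 ± 10.3 to 203 ± 23.4 FPKM (adjusted p = 1.16e-04), and Fitm2, which acts in droplet formation, from 52.6 ± 1.50 to 76.8 ± 5.01 FPKM (adjusted p = 3.24e-06). Plin1, the perilipin that holds Abhd5 away from Pnpla2 at rest, was at 355 and 332 FPKM and was not called (limma adjusted p = 0.213), except without knockdown library 4, where it was lower (0.0383). Cidec, the most abundant of the list at 1033 FPKM in the control and 946 FPKM in the knockdown libraries, had an adjusted p of 0.0454 by limma, which did not hold in 10 of the 12 fits without 1 library, those that kept both knockdown 4 and knockdown 5.

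Beside Adrb3, the lipolytic receptors held 3 tested genes, of which 2 were lower and none higher, beside 24.8% and 11.6% of all rows tested. The thyrotropin receptor Tshr fell from 6.24 ± 0.425 to 3.15 ± 0.187 FPKM (limma adjusted p = 1.74e-07) and the corticotropin receptor Mc2r from 21.5 ± 0.898 to 16.7 ± 1.91 FPKM (adjusted p = 0.00144), while Gnas, the stimulatory G protein, was at 219.7 and 206 FPKM and was not called. On the opposing side, 6 of 8 antilipolytic receptors and G proteins were lower and none higher, again beside 24.8% and 11.6% of all rows, and the median log2 fold change was -0.31. The succinate receptor Sucnr1 fell from 11.98 ± 0.573 to 6.28 ± 0.355 FPKM, the lactate receptor Hcar1 (listed as Gpr81) from 54.8 ± 2.06 to 33.8 ± 10.5 FPKM, and the short-chain fatty acid receptor Ffar2 from 18.7 ± 1.18 to 13.9 ± 1.37 FPKM (limma adjusted p = 3.35e-08, 0.00467 and 3.55e-04). Of the inhibitory G proteins, Gnai2 (122 and 109 FPKM) was lower (limma adjusted p = 0.0226), a call lost on centring (0.061), and Gnai3 (55.8 and 53.5 FPKM) was not called. Lower levels were therefore found among receptors of both directions.

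Between receptor and lipase, 1 of 3 tested adenylyl cyclases was lower, beside 24.8% of all rows tested. It was Adcy6 (limma log2 fold change -0.34, adjusted p = 1.37e-05), and Adcy9 (2.43 and 2.25 FPKM) was not called. Beyond Prkar2b, 4 of 14 PKA subunits, inhibitors and anchors were lower, a share near the 24.8% of all rows tested, with a median log2 fold change of -0.12. The largest change was that of Pkig, an inhibitor of the PKA catalytic subunit, from 25.2 ± 1.16 to 12.3 ± 0.477 FPKM (limma adjusted p = 2.65e-09). The anchors Akap1 and Akap12 had limma log2 fold changes of -0.21 (adjusted p = 0.00232) and -0.20 (adjusted p = 0.00706). The catalytic subunit Prkaca (148 and 135 FPKM, adjusted p = 0.0699) was called, lower, only without knockdown library 4 (0.0181), and the regulatory subunit Prkar1a (114 and 111 FPKM) was not called. Without 1 library the count of this list, Prkar2b included, ran from 3 (without knockdown library 1 or 3) to 7 (without knockdown library 4) around 5. Of the 8 tested phosphodiesterases other than Pde3b, 1 was lower, a share below the 24.8% of all rows tested. It was Pde1a (from 72.8 to 57.9 FPKM, limma adjusted p = 1.21e-04), while Pde7a (16.6 and 15.6 FPKM) was not called.

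Besides Aqp7, the glycerol list held 9 tested genes, of which 2 were lower and 1 higher, with a median log2 fold change of -0.05. Both shares are near those of all rows tested, 24.8% and 11.6%. The aquaporin Aqp11 fell from 4.18 ± 0.345 to 3.04 ± 0.410 FPKM (limma adjusted p = 0.00180), and Gpd1, which makes glycerol 3-phosphate for new triacylglycerol, from 836 ± 38.0 to 684 ± 96.7 FPKM (adjusted p = 0.0173). The water channel Aqp1 rose from 13.6 ± 0.825 to 17.8 ± 3.65 FPKM (adjusted p = 0.0243). Pck1, a source of glycerol 3-phosphate in fasting, was not called (means of 72.8 and 76.7 FPKM, adjusted p = 0.891), yet none of its knockdown libraries lay within the control range of 68.5 to 78.4 FPKM. Knockdown libraries 1, 2 and 3 held 96.3, 92.7 and 98.2 FPKM, above it, and 4, 5 and 6 held 60.3, 56.6 and 56.2 FPKM, below it. The other aquaglyceroporins Aqp3 and Aqp9 had control means of 0.412 and 0.0152 FPKM, so Aqp7 had the highest level of the 3.

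**Figure D5:**
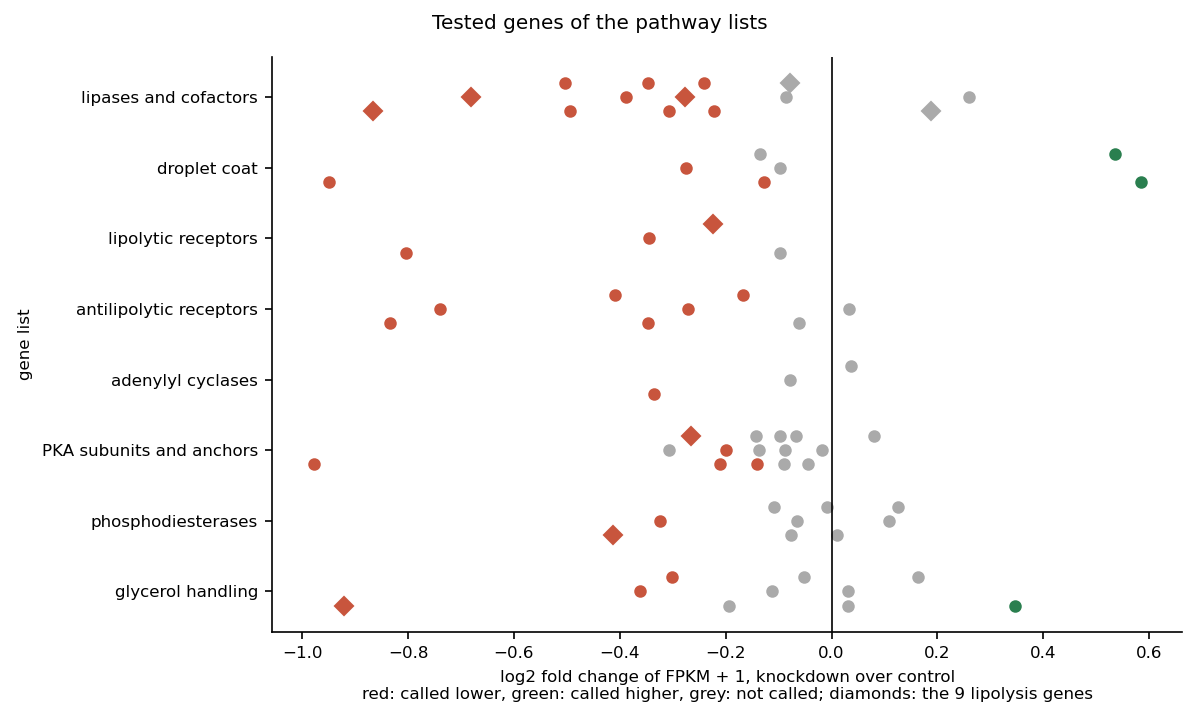
Log2 fold change of FPKM + 1, knockdown over control, of each tested gene (point) in the 8 pathway lists (vertical axis), red where called lower, green where called higher and grey where not called, with the 9 lipolysis genes as diamonds. Called genes lie left of 0 in all lists except the droplet coat, with 2 higher, and glycerol handling, with 1 higher.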

How the data were processed

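Total RNA of 12 libraries was sequenced, and strandedness was not given in the sources used here. The authors deposited 1 table with an FPKM value per gene and library, and, per the file headers, their own FPKM of each group, log2 fold change, p-value and q-value. Per the submitters' processing notes the tools were Cufflinks 2.0.2, Bowtie2 2.0.0.7, TopHat2 2.0.5 and SAMtools 0.1.18.0. The genome build and annotation were not given in the sources used here, and 99.5% of 18532 rows named as protein-coding genes of GENCODE M21 overlapped that gene on GRCm38. Starts in the locus column count from 0 and are printed counted from 1.

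Log2(FPKM + 1) values of the 14706 rows with a mean of at least 1 FPKM over the 12 libraries were fitted in limma 3.58.1 (R 4.3.3) with an intensity trend, knockdown against control without covariates, and p-values were adjusted by Benjamini-Hochberg over all of these rows. A gene is called at an adjusted p under 0.05. Such fold changes understate the changes of low genes. Limma's treat tested against a minimum fold of 1.2. Ratios were tested with exact two-sided permutation tests. The fit was tested on simulated data. Genes outside the 9 were named by a rule: per list, the called genes with the 3 largest changes and the 2 of highest level. The rule also took the 2 nearest profiles of members called by treat. Zfp407, the marker genes, Adrb1, Pde3a, Aqp3, Aqp9, Abhd6, Adra2a and Cidea were named outside this rule. The members and lists were chosen with earlier results of these data known. Of the listed symbols, 5 had no row of their own and were not analysed here. Alternatives were other pseudocounts, filters, scalings and tests, and leaving out each library.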

Additional observations from a re-analysis of the deposited data

Results flagged for a closer look

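Within the knockdown group, Aqp7 in library 4 stood apart from the others. It was 20.3 FPKM there, while the other 5 knockdown libraries held 13.5 to 15.7 FPKM, and the gap to the nearest of them was 0.675 of the group's whole range, above the critical value of Dixon's test for 6 samples. The library still lay below every control library for Aqp7. It was the 1 value so marked in 26 groups of 6 tested, where chance marks about 5% of groups. Without knockdown library 4, the limma log2 fold change of Aqp7 was -0.997.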

How the results depend on the processing

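With a minimum fold of 1.2 the rows called numbered 856 in place of 5360, and the lipolysis genes called lower 2 in place of 7. Leaving out 1 library at a time gave 4782 to 5517 rows called, 6 to 7 lipolysis genes lower and 0 to 1 higher, the 1 being Lipe without control library 2 or knockdown library 6. The log2 difference of the G0s2 to Pnpla2 ratio ran from 0.46 to 0.74 and passed the exact permutation test without knockdown library 4 or 5 (adjusted p = 0.026). No lipolysis gene changed direction under the alternatives run, and 173 of 198 single-gene values kept their side of the threshold. G0s2 also lost its call without a filter on low values (limma adjusted p = 0.0789), by the permutation test (0.0725) and when scaled to the sum over protein-coding rows (0.183), a scaling chosen after seeing the data. Adrb3 lost its call under that scaling (0.176) and under quantile normalization (0.106). Centring changed 8 of 16 list counts: the lower calls fell in 5 lists (lipases and cofactors from 10 to 8, droplet coat from 3 to 2, lipolytic receptors from 3 to 2, antilipolytic receptors from 6 to 5, PKA genes from 5 to 4) and the higher calls rose by 1 in 3. No paired analysis was possible because the knockdown columns do not carry the sample numbers of the labels, so the replicate block was not run. Depth limits the genes under 1 FPKM, which were not tested.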

Other observations

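Some genes of the lists lay below the filter, and 3 are given here that were picked after their values were seen. Adra2a, an antilipolytic adrenergic receptor, was listed at 0.0403 to 0.0699 FPKM in the control and 0.102 to 0.168 FPKM in the knockdown libraries. Its groups did not overlap, but its values are far under 1 FPKM and it was not tested. Cidea, a droplet protein of brown adipocytes, was at 0.463 to 0.957 FPKM in the control and 0.818 to 1.40 FPKM in the knockdown libraries, with overlap. Ucp1, the brown adipocyte uncoupling protein, was listed at 0 in 5 control and 4 knockdown libraries and reached at most 0.0205 FPKM in the others.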
